A study of Mus musculus with 8 samples.

Results

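Receptors for the constant (Fc) part of immunoglobulin G (IgG) were followed at the level of their transcripts in mouse 4T1 tumours. 4T1 is a mammary carcinoma cell line that is grown as a tumour in mice. The 6 genes were taken by name from the family. They are the activating receptors Fcgr1, Fcgr3 and Fcgr4, their shared signalling chain Fcer1g, the inhibitory receptor Fcgr2b, and the neonatal receptor Fcgrt. All 6 were found among the 32098 genes of the table, and all 6 were among the 13439 genes tested. The rule that picked them used names and no measured value, though earlier results of these data were known by then.

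RNA from whole tumours had been sequenced in 2 groups of 4. RI tumours (replicates 1, 2, 4 and 5) had been treated with radiation and an immune checkpoint inhibitor, and ICI tumours (replicates 1, 2, 3 and 4) with the inhibitor alone. Both groups carry the genotype label WT and both received the inhibitor, so no untreated tumour and no tumour given radiation alone enters the comparison. The design text mentions 3 replicates a group, whereas 4 are listed, and all 8 tumours were used. The labels name no strain, age, inhibitor, dose or time, and leave unstated whether the RI tumours themselves were irradiated. Nor do they state that each tumour came from its own mouse. A p-value here therefore measures spread among the samples sequenced, some of which may be technical.

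The labelled cell type is breast cancer cells. Krt8, a keratin of epithelial cells, was at 412 to 792 FPKM (fragments scaled for exon length and library size) in RI tumours and at 468 to 1064 FPKM in ICI tumours. Epcam, another epithelial marker, was at 0 to 1.06 FPKM in RI tumours, and at 5.02, 0.0678, 0.0372 and 3.19 FPKM in ICI 1, 2, 3 and 4. It was named after its values were seen. Fibroblast, macrophage and other host transcripts were present as well, so the values below are those of mixed tissue. Fewer cells of a type and less RNA per cell cannot be told apart in such samples.

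Depth, recovered from the steps between low values, was 27038700 to 42629100 fragments per library. 2 libraries stood apart. 3 genes resembling ribosomal RNA made up 60.7% of all FPKM of RI 4 but only 1.02% to 1.54% of those of RI 1, 2 and 5. ICI 1 had 14750 genes at 1 FPKM or more, against 13328 to 13454 in the other ICI tumours. It also held far more RNA of neutrophil markers: the summed level of 12 markers was 116 to 298 FPKM in RI tumours, 23001 FPKM in ICI 1 and 273 to 728 FPKM in the other ICI tumours. A value without both is given where leaving them out ended or made a call, or moved a printed difference or count by over 1.5 times.

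As background, IgG bound to a cell or particle is recognised by Fcγ receptors on macrophages, monocytes, neutrophils, natural killer (NK) cells and mast cells. The mouse activating receptors have no signalling motif of their own. They pair with the chain encoded by Fcer1g, whose immunoreceptor tyrosine-based activation motif (ITAM) recruits the kinase Syk and starts phagocytosis, killing and cytokine release. Fcgr2b carries an inhibitory motif instead, recruits phosphatases such as that encoded by Inpp5d, and dampens the same signals. In tumours this balance bears on therapeutic antibodies, because their Fc parts can engage these receptors. Fcgrt encodes a protein resembling a class I heavy chain. It pairs with β2-microglobulin (B2m) in endosomes and returns IgG and albumin to the cell surface or blood.

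4 of the genes lie together on chromosome 1 of GRCm38 (GENCODE M21). Fcgr2b (ENSMUSG00000026656) spans chr1:170958617-170976547 on the minus strand. Fcgr4 (ENSMUSG00000059089) follows 42372 bases further on, at chr1:171018920-171029761 on the plus strand. Fcgr3 (ENSMUSG00000059498) begins 21412 bases after it, at chr1:171051174-171064935 on the minus strand, and Fcer1g (ENSMUSG00000058715) another 164636 bases on, at chr1:171229572-171234365 on the minus strand. Fcgr1 (ENSMUSG00000015947) lies at chr3:96282909-96293969 and Fcgrt (ENSMUSG00000003420) at chr7:45092990-45103851, both on the minus strand. Each value is a sum over all exons of its gene.

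Fcgr3 and Fcgr2b have opposite roles but nearly the same ligand-binding part, which bears on how reads are assigned. Over 784 aligned coding bases of GENCODE M21 transcripts, 83.9% were identical, and in an ungapped block of 522 bases 496 (95.02%) were identical. The stretch below, in both genes from exons 3 and 4 on the minus strand, is shown because its 120 bases differ at 1 position, in capitals. It lies within chr1:171054137-171057753 in Fcgr3 and within chr1:170966644-170968042 in Fcgr2b, with an intron in between.
Fcgr3: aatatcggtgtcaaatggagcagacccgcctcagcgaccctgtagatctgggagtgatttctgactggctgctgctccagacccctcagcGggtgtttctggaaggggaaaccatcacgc
Fcgr2b: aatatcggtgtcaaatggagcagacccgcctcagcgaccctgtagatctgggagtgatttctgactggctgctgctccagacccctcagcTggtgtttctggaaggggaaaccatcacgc
Of all windows of 50 coding bases, 166 of 752 (22.1%) in Fcgr3 and 166 of 971 (17.1%) in Fcgr2b occurred unchanged in the other gene. At 100 bases it was 44 of 702 (6.27%) and 44 of 921 (4.78%). No other pair of the 6 genes shared any window. The sources used here give neither the read length nor the treatment of reads that match more than 1 place, so the split between Fcgr3 and Fcgr2b is uncertain to that extent.

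Promoter windows of RefSeq (GRCm38.p6), from 250 bases before to 50 after the annotated start, are shown for the activating receptors and for Fcgrt, the gene that rose. They were searched on both strands for the gamma-activated site of interferon γ signalling (TTCNNNGAA), the core bound by PU.1, a factor of myeloid and B cells (GAGGAA, or TTCCTC on the other strand), the core of the interferon-stimulated response element (GAAA, any pair of bases, then GAAA again) and the TATA box core (TATAAA). Capitals mark the matches. The windows are chr3:96293920-96294219 (minus strand) for Fcgr1, chr1:171059354-171059653 (minus) for Fcgr3, chr1:171018676-171018975 (plus) for Fcgr4 and chr7:45103773-45104072 (minus) for Fcgrt.
Fcgr1: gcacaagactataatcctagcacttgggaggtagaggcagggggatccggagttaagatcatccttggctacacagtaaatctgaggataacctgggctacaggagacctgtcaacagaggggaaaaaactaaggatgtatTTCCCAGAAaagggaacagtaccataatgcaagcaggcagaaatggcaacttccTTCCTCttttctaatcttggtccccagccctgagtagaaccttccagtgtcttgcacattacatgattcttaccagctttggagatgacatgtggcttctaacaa
Fcgr3: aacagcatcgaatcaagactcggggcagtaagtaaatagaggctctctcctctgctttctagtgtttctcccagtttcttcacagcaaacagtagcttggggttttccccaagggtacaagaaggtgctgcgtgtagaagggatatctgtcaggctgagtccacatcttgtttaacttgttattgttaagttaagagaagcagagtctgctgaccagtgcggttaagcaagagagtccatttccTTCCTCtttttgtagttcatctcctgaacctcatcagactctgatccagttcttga
Fcgr4: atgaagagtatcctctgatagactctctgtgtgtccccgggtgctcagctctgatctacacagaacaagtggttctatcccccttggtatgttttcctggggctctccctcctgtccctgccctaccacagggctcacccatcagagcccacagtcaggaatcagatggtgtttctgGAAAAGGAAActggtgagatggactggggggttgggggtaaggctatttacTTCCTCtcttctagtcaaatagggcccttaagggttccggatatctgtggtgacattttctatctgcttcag
Fcgrt: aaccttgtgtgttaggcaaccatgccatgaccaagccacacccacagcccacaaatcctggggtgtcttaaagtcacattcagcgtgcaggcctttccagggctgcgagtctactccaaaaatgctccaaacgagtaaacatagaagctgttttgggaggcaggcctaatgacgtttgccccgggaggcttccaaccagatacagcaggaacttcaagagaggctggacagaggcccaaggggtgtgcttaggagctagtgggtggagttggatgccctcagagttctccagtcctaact
Fcgr1 held a gamma-activated site beginning at position -109 and a PU.1 core at -55. Fcgr4 held the response element core at -73 and a PU.1 core at -22, and Fcgr3 a PU.1 core at -6. RefSeq lists another Fcgr3 start nearby, whose window (chr1:171059345-171059644) has the same core at -15. Both Fcgr3 windows lie inside the GENCODE span given above, which begins further upstream. No match of the 4 motifs was found in the windows of Fcgrt, Fcgr2b and Fcer1g. Among 32851 RefSeq promoter windows, 8.3% held the gamma-activated site, 28.3% the PU.1 core, 3.44% the response element core and 13.6% the TATA box core. The matches describe letters in these windows and are not evidence of binding.

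**Figure D1:**
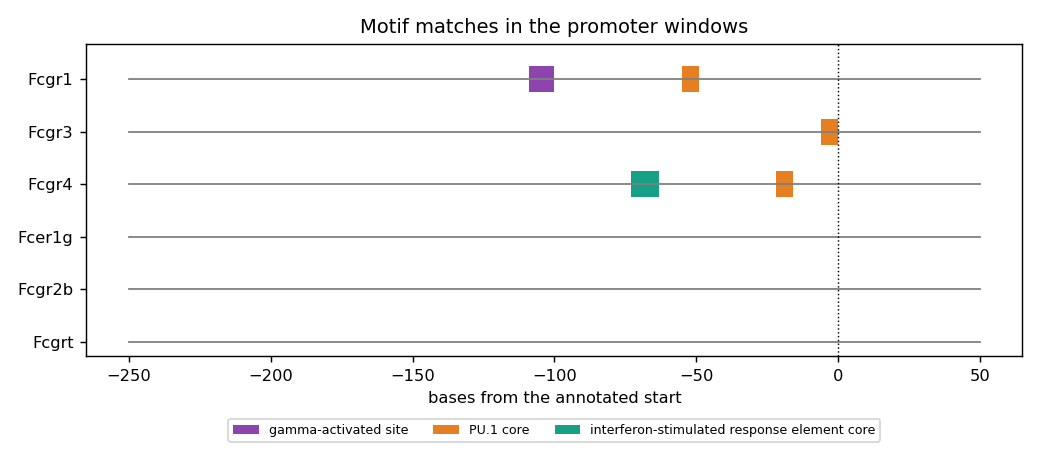
Position of motif matches (coloured bars) in the promoter window of each receptor gene, in bases from the annotated start (dotted line). Matches are seen in the 3 activating receptors only: Fcgr1 at -109 and -55, Fcgr3 at -6 (in the window shown), and Fcgr4 at -73 and -22.

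The comparison of RI with ICI tumours asked which receptor genes differed when radiation was added to the inhibitor. Fcgrt rose, and the other 5 genes did not pass the test. Mean Fcgrt was 28.9 FPKM in RI tumours and 13.3 FPKM in ICI tumours. The largest differences that missed the threshold were higher Fcgr4 and Fcgr2b and lower Fcer1g in RI tumours, and Fcgr1 and Fcgr3 had nearly equal means. So 1 of 6 genes rose and 0 fell, while of all tested genes 11.1% rose, 6.6% fell and 17.7% changed in either direction. 5 of the 6 had a higher mean log2 level in RI tumours, as had 51.1% of all tested genes, and 1 had an unadjusted limma p under 0.05, against 35.9% of all. The median difference of the 6 genes was 0.23 on the log2(FPKM + 1) scale and that of all tested genes 0.01. Without ICI 1 and RI 4 the differences were 0.24 (Fcgr1), 0.58 (Fcgr3), 0.72 (Fcgr4), -0.07 (Fcer1g), 0.53 (Fcgr2b) and 1.19 (Fcgrt). The median of all tested genes was then 0.09. In that fit the unadjusted limma p was under 0.05 for Fcgrt (0.00013), Fcgr3 (0.0199) and Fcgr2b (0.0286). It called 1 of the 6, while of all 13439 tested genes 2044 rose and 1059 fell. In none of the 6 did all RI tumours lie on one side of all ICI tumours, whereas 16.7% of tested genes lay entirely above and 11.2% entirely below. Without ICI 1 and RI 4, all RI values lay above all ICI values for Fcgr3 and Fcgrt. With fewer tumours a group the shares just given do not apply. The share of all genes that did so without those libraries was not computed, so this lack of overlap is only described.

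**Figure D2:**
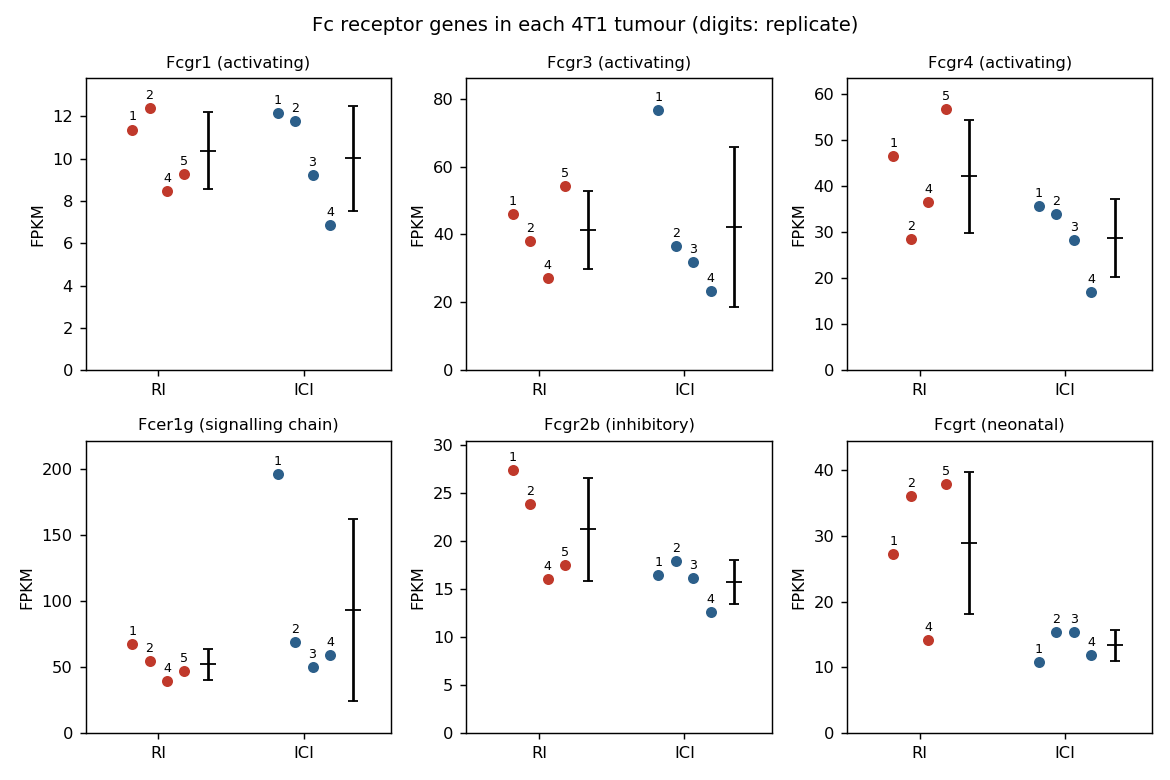
FPKM of the 6 receptor genes in each tumour (digits, replicate; RI red, ICI blue), with the mean and SD of each group in black (n = 4). The groups overlap in every panel; for Fcgrt 3 RI tumours lie above all ICI tumours, and for Fcer1g ICI 1 lies far above the rest.

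Among the activating receptors, Fcgr1 is the high-affinity receptor, able to bind single IgG molecules, and is known to be induced by interferon γ. It was at 11.4, 12.4, 8.45 and 9.30 FPKM in RI 1, 2, 4 and 5, against 12.2, 11.8, 9.25 and 6.84 FPKM in ICI 1, 2, 3 and 4. The groups overlapped throughout, with means of 10.4 ± 1.82 FPKM in RI and 10.01 ± 2.48 FPKM in ICI tumours (SD, n = 4 each). The difference was 0.06 (SE 0.20, 95% interval -0.38 to 0.50) on the log2(FPKM + 1) scale, with a limma adjusted p of 0.840. It was 0.24 without ICI 1 and RI 4 (adjusted p = 0.387).

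Fcgr3 encodes the low-affinity activating receptor of myeloid and NK cells. It stood at 45.9, 38.0, 27.1 and 54.2 FPKM in RI 1, 2, 4 and 5, against 76.7, 36.7, 31.9 and 23.4 FPKM in ICI 1, 2, 3 and 4. Both the highest and the lowest tumour were in the ICI group. Means were 41.3 ± 11.5 FPKM in RI and 42.2 ± 23.6 FPKM in ICI tumours (SD, n = 4 each). The difference was 0.07 (SE 0.35, interval -0.72 to 0.86; limma adjusted p = 0.907). Without ICI 1 and RI 4 it was 0.58, and the adjusted p was 0.0695.

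Fcgr4, a mouse receptor that binds IgG2a and IgG2b, was at 46.7, 28.6, 36.6 and 56.8 FPKM in RI 1, 2, 4 and 5, against 35.6, 33.9, 28.4 and 16.9 FPKM in ICI 1, 2, 3 and 4. 3 RI tumours lay above every ICI tumour, and RI 2 lay among them. Means were 42.2 ± 12.2 FPKM in RI and 28.7 ± 8.44 FPKM in ICI tumours (SD, n = 4 each). The difference of 0.55 (SE 0.28, interval -0.07 to 1.16) had an unadjusted limma p of 0.0771 and an adjusted p of 0.185, so it was not called.

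Fcer1g, the ITAM chain needed by all 3, had the highest mean of the family in both groups. Its level was 67.0, 54.7, 39.0 and 47.0 FPKM in RI 1, 2, 4 and 5, against 196, 68.8, 49.6 and 58.6 FPKM in ICI 1, 2, 3 and 4. ICI 1 was far above every other tumour, and the remaining values overlapped. The difference was -0.63 (SE 0.40, interval -1.53 to 0.27; limma adjusted p = 0.286). It was -0.20 without ICI 1 and -0.07 without ICI 1 and RI 4. On the log2 scale the SD of Fcer1g was 0.33 in RI and 0.88 in ICI tumours, and 94.8% of tested genes varied less than it within the ICI group.

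The inhibitory receptor Fcgr2b was at 27.4, 23.9, 16.03 and 17.5 FPKM in RI 1, 2, 4 and 5, against 16.5, 17.9, 16.2 and 12.6 FPKM in ICI 1, 2, 3 and 4. RI 1 and RI 2 lay above every ICI tumour, and RI 4 and RI 5 lay within the ICI range. The means of 21.2 ± 5.37 FPKM in RI and 15.8 ± 2.27 FPKM in ICI tumours (SD, n = 4 each) differed by 0.39 on the log2(FPKM + 1) scale (SE 0.19, interval -0.05 to 0.82). The limma adjusted p was 0.185. Of the 24 alternatives, array weights, which give less weight to variable libraries, called it (0.51, adjusted p = 0.0316), and no other did. The difference was 0.18 with length and GC trends removed (adjusted p = 0.445) and 0.26 without RI 1 (0.395).

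Fcgrt was at 27.3, 36.1, 14.2 and 37.9 FPKM in RI 1, 2, 4 and 5, against 10.8, 15.4, 15.4 and 11.8 FPKM in ICI 1, 2, 3 and 4. RI 1, 2 and 5 lay above every ICI tumour, and RI 4, the library with the ribosomal-like genes, lay within the ICI range. Mean Fcgrt was 28.9 ± 10.8 FPKM in RI and 13.3 ± 2.37 FPKM in ICI tumours (SD, n = 4 each), a ratio of 2.17. On the log2(FPKM + 1) scale the difference was 0.99 (SE 0.29, interval 0.34 to 1.63), with a limma adjusted p of 0.0442. An exact two-sided permutation test over the 70 regroupings gave p = 0.0857, the smallest possible being 0.0286.

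The Fcgrt call sat close to the threshold. It was kept when RI 4 was left out (1.28, limma adjusted p = 0.0230) and when ICI 1 and RI 4 were both left out (1.19, 0.0091), but leaving out any other single library gave an adjusted p between 0.0594 (ICI 3) and 0.112 (ICI 4), with ICI 1, ICI 2, RI 1, RI 2 and RI 5 in between. The adjusted p was also above the threshold with no filter on low values (0.135) and on the TPM scale (0.160). It was below it with quantile normalization (0.0235), upper-quartile scaling (0.0227), median centring (0.0264) and limma voom (0.0142). Of all 24 alternatives 13 called Fcgrt and 11 did not. An antisense gene model, Gm45669, overlaps 5331 bases of Fcgrt and had at most 1.12 FPKM. Whether reads were counted by strand is not stated in these sources.

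**Figure D3:**
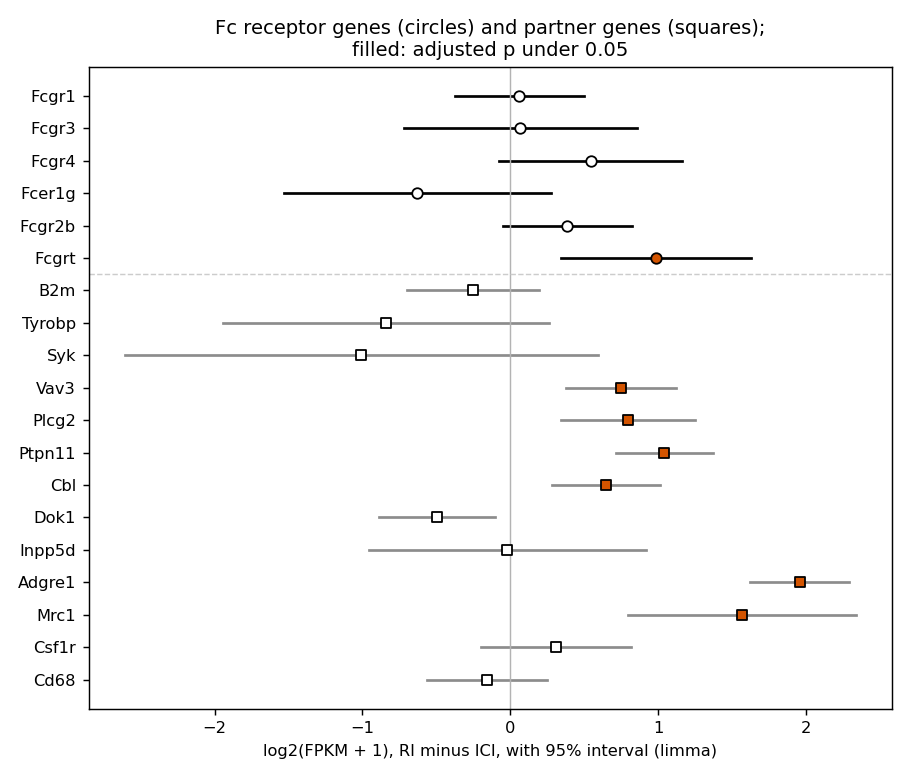
Difference RI minus ICI in log2(FPKM + 1) with its 95% limma interval, for the 6 receptor genes (circles) and for partner and macrophage genes (squares); filled symbols had an adjusted p under 0.05. Fcgrt, at 0.99, is the receptor gene whose symbol is filled.

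FPKM are scaled for exon length, so levels can be ordered between genes, but the order depends on the annotated length. That length was 5790 bases for Fcgr2b, 1736 for Fcgr3, 1256 for Fcgr4 and 874 for Fcer1g. Fcgr2b rested on 3093 to 4456 fragments per tumour and Fcgr3 on 1714 to 4388. The size of a ratio between genes depends on these lengths too, while the ranking of tumours by it does not. The uncertain split of reads between Fcgr3 and Fcgr2b bears on both. In RI tumours the means ran Fcer1g (51.9 FPKM), Fcgr4 (42.2), Fcgr3 (41.3), Fcgrt (28.9), Fcgr2b (21.2) and Fcgr1 (10.4). In ICI tumours the order was Fcer1g (93.2 FPKM), Fcgr3 (42.2), Fcgr4 (28.7), Fcgr2b (15.8), Fcgrt (13.3) and Fcgr1 (10.01). Neighbours in these orders had overlapping ranges, except Fcgr2b and Fcgr1 in RI tumours. Within tumours, Fcgr3 exceeded Fcgr4 in 1 of 4 RI and in 4 of 4 ICI tumours, and Fcgr2b exceeded Fcgrt in 2 of 4 RI and in 4 of 4 ICI tumours. Set against all tested genes, mean levels exceeded those of 60.8% of genes for Fcgr1 and of 95.3% for Fcer1g. Fcgr2b, at 78.1%, and Fcgrt, at 81.1%, stood in between, as did Fcgr4 at 89.4% and Fcgr3 at 91.2%.

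Ratios within a tumour set the activating against the inhibitory arm, and they have no p-value here. For scale, 16.7% of single tested genes lay entirely above and 11.2% entirely below in RI tumours. No such share was computed over ratios, so a lack of overlap in a ratio, here or below, is only described. Fcer1g over Fcgr2b was 2.44, 2.29, 2.43 and 2.68 in RI 1, 2, 4 and 5, against 11.9, 3.84, 3.07 and 4.67 in ICI 1, 2, 3 and 4. All RI tumours lay below all ICI tumours, and the RI values lay close together. The mean ratio was 2.46 ± 0.164 in RI and 5.87 ± 4.07 in ICI tumours (SD, n = 4 each), a log2 difference of -1.04, or -0.63 without ICI 1 and RI 4. Fcgr1 over Fcgr2b was also lower in every RI tumour, at 0.498 ± 0.056 in RI and 0.629 ± 0.088 in ICI tumours, though RI 5 (0.531) and ICI 4 (0.545) nearly met.

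The other activating receptors showed no such separation. Fcgr3 over Fcgr2b was 1.59 to 3.09 in RI and 1.86 to 4.66 in ICI tumours. Fcgr4 over Fcgr2b was 1.19 to 3.24 in RI and 1.35 to 2.17 in ICI tumours. The sum of the 3 activating receptors over Fcgr2b was 3.30 to 6.87 in RI and 3.76 to 7.56 in ICI tumours, so the groups overlapped. Set against the receptors it serves, Fcer1g was lower in RI tumours: its ratio to the summed Fcgr1, Fcgr3 and Fcgr4 was 0.645, 0.692, 0.540 and 0.390 in RI 1, 2, 4 and 5, against 1.57, 0.835, 0.713 and 1.24 in ICI 1, 2, 3 and 4. The groups did not overlap, though RI 2 and ICI 3 lay close. This ratio was chosen after the values were seen, and its log2 difference was -0.91, or -0.70 without ICI 1 and RI 4.

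**Figure D4:**
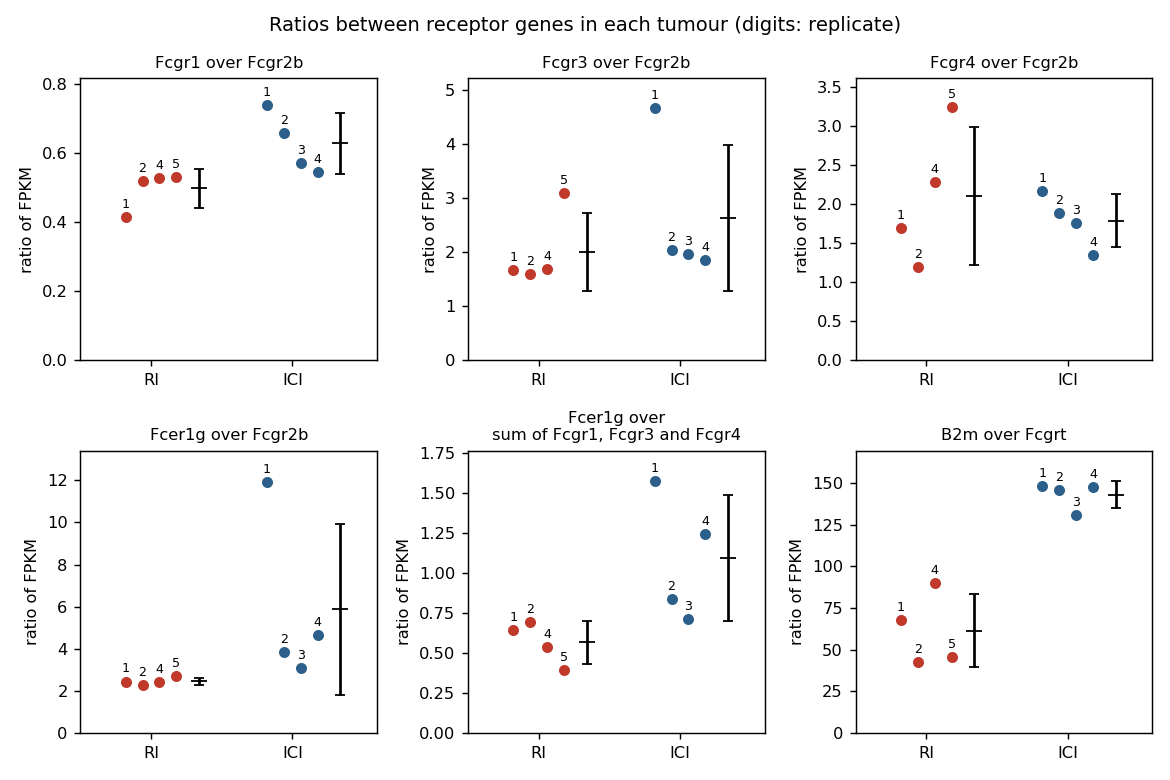
Ratios of FPKM between receptor genes in each tumour (digits, replicate; RI red, ICI blue), with mean and SD in black (n = 4). Fcgr1 over Fcgr2b, Fcer1g over Fcgr2b, Fcer1g over the 3 activating receptors and B2m over Fcgrt are lower in every RI tumour than in any ICI tumour; the Fcgr3 and Fcgr4 ratios overlap.

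B2m, the light chain that Fcgrt shares with class I molecules, did not pass the test, with 1598 ± 251 FPKM in RI and 1898 ± 285 FPKM in ICI tumours (SD, n = 4 each; -0.25, limma adjusted p = 0.393). B2m over Fcgrt, a ratio chosen after the values were seen, was 67.7, 42.4, 89.8 and 45.7 in RI 1, 2, 4 and 5, against 148, 146, 131 and 147 in ICI 1, 2, 3 and 4. The 4 ICI ratios lay close together and all RI ratios lay below them. RI 4 was the highest of its group but still under every ICI tumour.

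The ligands of the receptors are antibodies made by plasma cells. List counts here and below stand beside the 11.1% of all tested genes that rose and the 6.6% that fell. Without ICI 1 and RI 4, 2044 of 13439 genes rose and 1059 fell. With limma voom, 2407 of 13330 rose and 1066 fell. Of 7 IgG heavy and light chain genes, 3 were tested, 0 rose and 2 fell, and limma voom called 1 lower. In 5 of the 7 all RI tumours lay below all ICI tumours, as in 11.2% of all tested genes. The summed level of the 7 was 3.38 to 26.3 FPKM in RI tumours, against 1790 FPKM in ICI 1 and 53.1 to 95.7 FPKM in the other ICI tumours. Igkc, the κ light chain, fell, at 3.20 to 24.0 FPKM in RI and 47.9 to 1407 FPKM in ICI tumours (-3.75, limma adjusted p = 0.0477), a difference of -2.42 without ICI 1 and RI 4 (0.0377). It missed the threshold without ICI 2, ICI 4, RI 1, RI 2, RI 4 or RI 5 (largest adjusted p 0.116).

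Ighg1, below the filter, was at 0.0714 to 0.276 FPKM in RI tumours and at 0.652 to 48.9 FPKM in ICI tumours. Ighg2c, which encodes a ligand of Fcgr4, was at 0.112 to 1.10 FPKM in RI tumours, against 262 FPKM in ICI 1 and 1.44 to 4.30 FPKM in the others (-2.71, limma adjusted p = 0.192, and -1.07 without ICI 1 and RI 4, adjusted p = 0.0687). For both, an exact two-sided permutation test gave p = 0.0286, the smallest it can give. Trim21, a receptor for IgG inside the cell, was at 11.7 ± 3.55 FPKM in RI and 8.50 ± 1.15 FPKM in ICI tumours (SD, n = 4 each; limma adjusted p = 0.178). Of 12 other Fc receptor and receptor-like genes 2 were tested, and neither was called by limma, by limma voom or at an unadjusted p under 0.05.

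Of 13 ITAM adaptors and partner receptors 9 were tested, and 0 rose and 0 fell with limma. At an unadjusted p under 0.05 the number was also 0, and limma voom called 0. Tyrobp, the other ITAM adaptor of myeloid and NK cells, went with Fcer1g in being highest in ICI 1. It was at 61.3, 57.6, 32.5 and 45.1 FPKM in RI 1, 2, 4 and 5, against 262, 69.6, 55.4 and 54.4 FPKM in ICI 1, 2, 3 and 4 (-0.84, limma adjusted p = 0.244). The Tyrobp difference without ICI 1 and RI 4 was -0.13 (adjusted p = 0.570). Clec4e, a C-type lectin receptor that signals through the Fcer1g chain, was lower in every RI tumour, at 0.962 to 1.35 FPKM in RI and 1.56 to 12.4 FPKM in ICI tumours (-1.05, limma adjusted p = 0.140, and -0.53 without ICI 1 and RI 4, adjusted p = 0.0644). Clec4n, another such receptor, was at 21.5 ± 8.54 FPKM in RI and 14.3 ± 5.23 FPKM in ICI tumours (SD, n = 4 each; limma adjusted p = 0.256).

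Of 20 genes of the activating signal below the receptors, 18 were tested. Of these 2 rose and 0 fell, against 11.1% and 6.6% of all tested genes, and the median difference of the 18 was -0.23. Without ICI 1 and RI 4, 5 rose and 1 fell, and the median was 0.28. Over the 8 fits that each left out 1 library, 0 to 4 rose and 0 to 1 fell. Vav3, a guanine nucleotide exchange factor, rose, at 8.75 to 12.1 FPKM in RI and 4.29 to 7.06 FPKM in ICI tumours (0.75, limma adjusted p = 0.0210). Plcg2, a phospholipase that triggers calcium release, also rose, with 30.2 ± 8.29 FPKM in RI and 16.7 ± 2.70 FPKM in ICI tumours (SD, n = 4 each; 0.80, limma adjusted p = 0.0296). Vav3 missed the threshold without ICI 4, RI 1 or RI 5, and Plcg2 without ICI 2, ICI 3, ICI 4, RI 1, RI 4 or RI 5 (largest adjusted p 0.0662 for Vav3 and 0.0900 for Plcg2).

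Syk, the kinase recruited by the ITAM, was at 3.00, 3.07, 2.30 and 3.36 FPKM in RI 1, 2, 4 and 5, against 41.7, 3.48, 3.61 and 3.33 FPKM in ICI 1, 2, 3 and 4. Outside ICI 1 the values ran from 2.30 to 3.61 FPKM (-1.01 over all tumours, limma adjusted p = 0.332, and -0.11 without ICI 1 and RI 4, adjusted p = 0.499). Card9, an adaptor that acts after Syk, was below all ICI tumours in every RI tumour, at 1.39 to 3.65 FPKM in RI and 5.53 to 107 FPKM in ICI tumours. It was not called (-1.92, limma adjusted p = 0.142), but fell by 0.72 without ICI 1 and RI 4 (adjusted p = 0.0128).

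Of 8 genes of the inhibitory signal, all tested, 2 rose and 0 fell, against 11.1% and 6.6% of all tested genes. Leaving out 1 library at a time, 1 to 2 of the 8 rose. Ptpn11, a tyrosine phosphatase with SH2 domains, rose, with 24.9 ± 1.54 FPKM in RI and 11.7 ± 2.02 FPKM in ICI tumours (SD, n = 4 each; 1.04, limma adjusted p = 0.0115). It passed in all 8 fits that left out 1 library. Cbl, a ubiquitin ligase that acts on activated kinases, rose, with 8.24 ± 0.653 FPKM in RI and 4.98 ± 1.34 FPKM in ICI tumours (SD, n = 4 each; 0.65, limma adjusted p = 0.0289). Cbl passed only in the fit without ICI 1, its largest adjusted p being 0.0885.

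Inpp5d, the lipid phosphatase through which Fcgr2b acts in mouse B cells and mast cells, was at 3.46 to 5.72 FPKM in RI tumours, against 14.1 FPKM in ICI 1 and 2.83 to 3.31 FPKM in the other ICI tumours. Over all tumours the difference was -0.02 (limma adjusted p = 0.982), and without ICI 1 and RI 4 it was 0.56 (adjusted p = 0.0215). Dok1, an adaptor bound by phosphorylated receptors, was lower in every RI tumour, at 42.3 ± 8.20 FPKM in RI and 59.1 ± 4.39 FPKM in ICI tumours (SD, n = 4 each; -0.49, limma adjusted p = 0.0754).

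Interferon γ induces Fcgr1 and Fcgr4 in mouse macrophages, so its targets were set beside them. Of 14 such targets, all tested, 3 rose and 0 fell, and 13 had a higher mean log2 level in RI tumours, with a median difference of 0.82. Over all tumours 9 had an unadjusted limma p under 0.05, against 35.9% of all tested genes. Without ICI 1 and RI 4 the number that rose was 0 and the median was 0.88. In that fit 5 had an unadjusted limma p under 0.05, and the share of all genes was not computed. With limma voom over all tumours 3 were called. Irgm2, an interferon-inducible GTPase, rose, with 53.3 ± 22.6 FPKM in RI and 17.0 ± 6.34 FPKM in ICI tumours (SD, n = 4 each; 1.57, limma adjusted p = 0.0226). It missed the threshold without ICI 4, without RI 2, and without ICI 1 and RI 4 together (1.58, adjusted p = 0.0525). Fcgr1 differed by 0.06 and Fcgr4 by 0.55, and neither was called (limma adjusted p = 0.840 and 0.185). A link of these differences to interferon γ or to the motifs in their windows was not tested.

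Markers of cells that carry the receptors were set beside them, and their part in the receptor values was not tested. Of 12 macrophage markers, all tested, 2 rose and 1 fell, and leaving out 1 library at a time 1 to 3 rose and 0 to 1 fell. Without ICI 1 and RI 4, 2 rose and 0 fell. Adgre1, a surface antigen of mouse macrophages, rose, with 7.68 ± 1.37 FPKM in RI and 1.22 ± 0.171 FPKM in ICI tumours (SD, n = 4 each; 1.96, limma adjusted p = 0.00158). Mrc1, the mannose receptor, rose, with 26.5 ± 13.3 FPKM in RI and 7.68 ± 2.00 FPKM in ICI tumours (SD, n = 4 each; 1.57, limma adjusted p = 0.0207), but not without ICI 4 or RI 2. Cd14, a co-receptor for lipopolysaccharide, fell, at 17.4 to 41.4 FPKM in RI and 34.8 to 68.5 FPKM in ICI tumours (-0.95, limma adjusted p = 0.0498), and was called in 1 of the 8 fits that left out a library, the one without RI 5. The Cd14 difference without ICI 1 and RI 4 was -0.67 (adjusted p = 0.147). Csf1r (0.31, and 0.57 without ICI 1 and RI 4) and Cd68 (-0.16, and -0.06 without them) were not called, and the summed macrophage level overlapped, at 378 to 911 FPKM in RI and 403 to 525 FPKM in ICI tumours.

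Against the leukocyte marker Ptprc, Fcer1g overlapped between the groups, with ratios of 12.1 to 25.1 in RI and 8.77 to 21.8 in ICI tumours. Against macrophage transcripts it did not. Fcer1g over Csf1r, the receptor for the macrophage growth factor, was 4.43, 2.57, 3.19 and 3.29 in RI 1, 2, 4 and 5, against 11.2, 5.15, 4.65 and 6.59 in ICI 1, 2, 3 and 4. Every RI tumour was below every ICI tumour, though RI 1 and ICI 3 lay close. Fcgrt over Csf1r was 1.81, 1.70, 1.16 and 2.66 in RI 1, 2, 4 and 5, against 0.615, 1.15, 1.44 and 1.33 in ICI 1, 2, 3 and 4, so that RI 4 lay within the ICI range. Fcgr2b over Csf1r overlapped, with means of 1.37 ± 0.305 in RI and 1.30 ± 0.253 in ICI tumours (SD, n = 4 each).

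Of 12 neutrophil markers 11 were tested, 0 rose and 2 fell, with a median difference of -2.65. Without ICI 1 and RI 4, 1 rose and 7 fell, with a median of -1.48. Over the fits without 1 library 0 to 7 fell, and with limma voom 0 fell. S100a9, an abundant neutrophil calcium-binding protein, fell, with 6.20 to 45.7 FPKM in RI tumours, against 12310 FPKM in ICI 1 and 134 to 352 FPKM in the other ICI tumours (-5.12, limma adjusted p = 0.0380, and -3.74 without ICI 1 and RI 4, adjusted p = 0.0170). It missed the threshold without ICI 2, ICI 4, RI 1, RI 2, RI 4 or RI 5 (largest adjusted p 0.0937). The tumour with the highest neutrophil markers, ICI 1, was the one with the highest Fcer1g and Fcgr3, but it lay within the spread of the others for Fcgr1, Fcgr4 and Fcgr2b and was the lowest of all 8 for Fcgrt. ICI 1 also had the highest summed level of pan-leukocyte (603 FPKM), monocyte (315), B cell (23.5), T cell (20.6) and endothelial markers (93.9). It was not the highest for macrophage, NK cell or mast cell markers. A link of any of these lists to the receptor values was not tested.

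**Figure D5:**
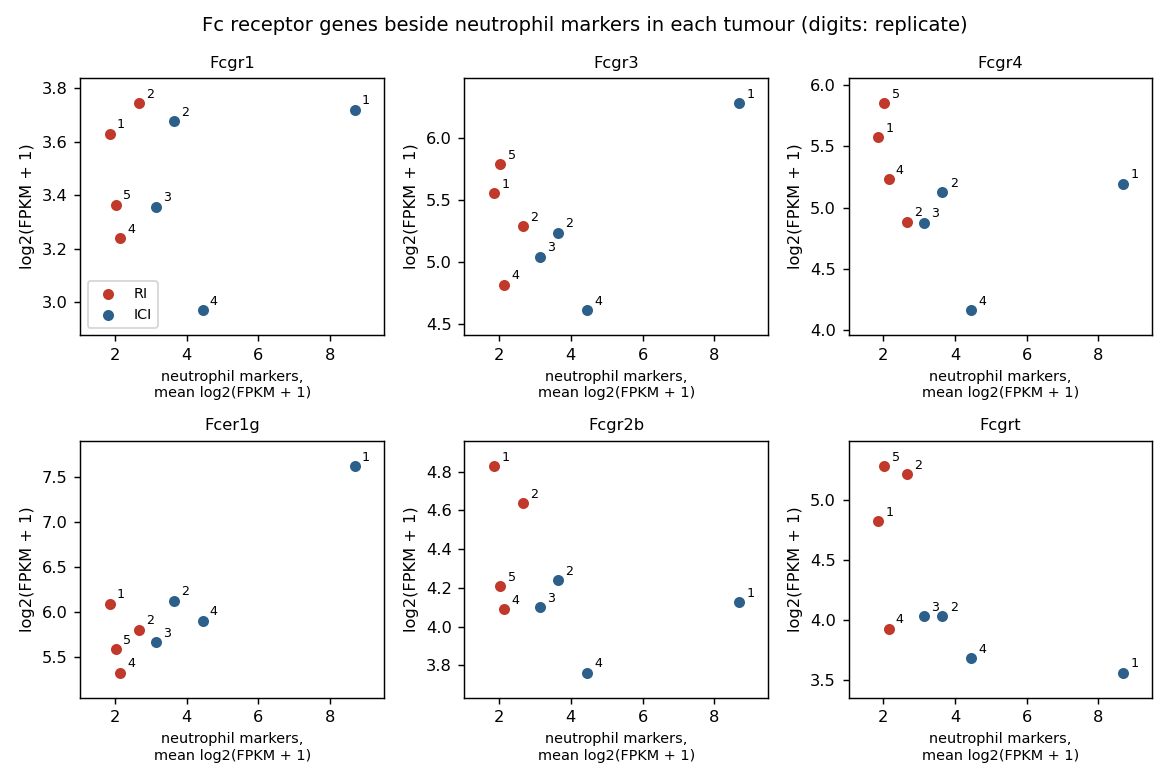
Level of each receptor gene, log2(FPKM + 1), against the mean log2(FPKM + 1) of neutrophil markers in the same tumour (digits, replicate; RI red, ICI blue). ICI 1, at 8.69 on the horizontal axis, is the highest tumour for Fcer1g and Fcgr3 and the lowest for Fcgrt; the other 7 tumours lie between 1.85 and 4.44.

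Other receptor-bearing or stromal cells were described in the same way. Of 7 NK cell markers 2 were tested and 2 rose (1 to 2 without 1 library), and their summed level was 27.9 to 53.4 FPKM in RI and 2.36 to 11.5 FPKM in ICI tumours. Of 6 mast cell markers 5 were tested and 3 rose (0 to 3 without 1 library), with sums of 15.0 to 51.4 FPKM in RI and 2.35 to 10.4 FPKM in ICI tumours. Of 6 fibroblast markers, all tested, 3 rose (0 to 4 without 1 library and 5 without ICI 1 and RI 4), and their sums were 102 to 502 FPKM in RI and 46.8 to 66.3 FPKM in ICI tumours. Col1a1, the main chain of type I collagen, rose, with 111 ± 88.1 FPKM in RI and 22.9 ± 5.17 FPKM in ICI tumours (SD, n = 4 each; 1.96, limma adjusted p = 0.0254), but not without ICI 2, ICI 4 or RI 5. Of 6 endothelial markers 3 were tested, and of 6 B cell markers and 7 dendritic cell markers 1 each, and 0 were called by limma or limma voom, with 1 endothelial marker at an unadjusted p under 0.05.

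Of 6 pan-leukocyte markers, all tested, 1 rose and 0 fell, and 2 had a higher mean log2 level in RI tumours. Their median difference was -0.41, or 0.13 without ICI 1 and RI 4. In 1 of them all RI tumours lay above all ICI tumours and in 1 all lay below, as in 16.7% and 11.2% of all tested genes. Laptm5, a lysosomal membrane protein of blood cells, rose. It was at 68.7 ± 15.2 FPKM in RI and 26.5 ± 8.74 FPKM in ICI tumours (SD, n = 4 each, difference 1.37, limma adjusted p = 0.0152). It passed in all 8 fits that left out 1 library. Ptprc, the CD45 antigen of all leukocytes, was at 1.87 to 4.30 FPKM in RI tumours, against 22.3 FPKM in ICI 1 and 2.69 to 3.38 FPKM in the other ICI tumours (-0.58, limma adjusted p = 0.483, and 0.04 without ICI 1 and RI 4, adjusted p = 0.909). Of 6 monocyte markers, all tested, 1 rose (0 to 1 without 1 library, 0 without ICI 1 and RI 4). Of 6 plasma cell markers 4 were tested, with 1 called higher and 1 lower. Without 1 library 0 of these were called higher in any of the 8 fits and 1 to 2 lower, and without ICI 1 and RI 4 it was 1 higher and 2 lower. Of 6 T cell markers 3 were tested and 1 fell (0 to 1 without 1 library).

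The genes whose profile over the 8 tumours was most like that of each receptor were found by the root mean square difference of centred log2(FPKM + 1). This distance is not scaled by the spread of a gene, so it tends to be larger for genes that vary more. Nearest to Fcgr1 was Scrn3 (0.0856), to Fcgr3 F10 (0.149), to Fcgr4 Fbxo10 (0.173), to Fcer1g N4bp2l1 (0.0897) and to Fcgr2b Ugcg (0.0924). Fcgrt had no equally near neighbour: Rcan1 was at 0.195, Nuak1 at 0.207 and Lrrn4cl at 0.225. These genes were picked for their profile, so their own differences are no separate result. Among the receptors themselves, Fcgr1 and Fcgr2b were the most alike pair (0.220), and Fcer1g and Fcgrt the least alike (1.09). For Fcgr1, 568 of 11568 genes compared were nearer than Fcgr2b. Fcer1g and Fcgr3, which lie in 1 receptor complex, differed by 0.463.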

How the data were processed

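FPKM, the unit of the single table of 8 tumours, had been computed by the authors. Per the submitters' processing notes, HISAT2 and GRCm38 (mm10) were used, while the counting program, annotation release and filters are not given in these sources. Genes reaching 1 FPKM in 4 or more tumours were tested on log2(FPKM + 1), a scale that understates changes of low genes, with limma 3.58.1 in R 4.3.3 (two-sided, no covariate, eBayes with trend and robust options). P-values were adjusted over all 13439 genes by Benjamini-Hochberg, and an adjusted p under 0.05 was called. Fragments were recovered from steps between low FPKM; 98.6% to 98.8% of values of up to 50 fragments lay within 0.05 of whole numbers. They served for depth and for limma voom as an alternative. Every pair of libraries differed beyond sampling noise. The FPKM of a receptor gene rested on 749 to 5644 fragments.

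The members, 20 gene lists of 168 entries and the settings tried were chosen with earlier results of these data known. All members were named; of each list, up to 4 genes with the smallest p, the most abundant gene and preset markers could be named, and the 3 nearest genes by profile. The fit was tried on 10 simulated sets of 13439 genes, of which 200 were shifted. It called 55.8% of shifts of 1 and 90.2% of shifts of 2 on the log2 scale, and 4.44% of calls were false. These rates describe the simulated sets only. In the tumours 2373 genes were called, and array weights ran from 0.1723 (ICI 1) to 2.975 (RI 2). Whether the rates hold for libraries that differ so much was not tested. The sample titles do not say whether tumours with the same replicate number belong together, and the reported fit did not pair them. The labels give no batch.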

Additional observations from a re-analysis of the deposited data

Results flagged for a closer look

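Within a group of 4 tumours, a highest or lowest value was picked out when its gap to the next tumour was too large a share of the group's range by Dixon's 95% critical value (which chance exceeds in about 1 in 20 groups). Of 72 groups over 36 genes 15 exceeded it, 12 of them in ICI 1. The genes were the receptors and those named in the text, not a random draw, and flags in the same tumour are not independent. The rule was applied to FPKM and not to their logarithms. The rate of 1 in 20 is therefore no expected count for these groups. Among the receptor genes it was exceeded by 1, Fcer1g, with 196 FPKM in ICI 1. In the same tumour Tyrobp was at 262 FPKM, Syk at 41.7 FPKM, Card9 at 107 FPKM, Clec4e at 12.4 FPKM and Inpp5d at 14.1 FPKM. The antibody chains Ighg1 (48.9 FPKM), Ighg2b (17.7 FPKM), Ighg2c (262 FPKM) and Igkc (1407 FPKM) were the highest there too, as were Ptprc (22.3 FPKM) and S100a9 (12310 FPKM).

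Outside ICI 1, Krt8 stood apart at 792 FPKM in RI 5, Card9 at 1.39 FPKM in RI 4, as the lowest of its group, and Adgre1 at 1.47 FPKM in ICI 3. No receptor gene other than Fcer1g was marked in either group.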

How the results depend on the processing

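Fcgrt was higher in RI tumours under all 24 alternatives (0.83 to 1.28 on the log2 scale) and was called in 13 (limma adjusted p 0.00383 to 0.160). It was not called with no filter (0.99), with TPM (1.11), with the replicate number as a block (0.90, adjusted p 0.111) and with the replicate block and removal of length and GC trends (1.11). Leaving out 1 library gave 0.83 to 1.28. The number of receptor genes called was 1 in the reported fit, 0 under each of those 4 settings, 2 with array weights (Fcgr2b at 0.51 in addition) and 0 to 1 without 1 library. Fcgr3 was -0.16 with the block, -0.018 with block and trends removed, and -0.16 to 0.40 without 1 library; Fcgr1 was -0.090 to 0.16 without 1 library. The median difference of all genes was 0.01 in the reported fit and 0.108 with TPM.

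Over all genes 2373 were called, against 241 with no filter, 280 with TPM, 4319 with array weights, 22 with the replicate block, 2 with block and trends removed, and 336 to 2693 without 1 library. Of the calls 62.6% were higher in RI, against 53.4% with upper-quartile scaling, 48.0% with median centring, 53.9% with trends removed and 78.8% with no filter. Tumours with the same number did not deviate together (correlations -0.0923, -0.120 and -0.124), so the block is given here alone. The cause of these shifts was not tested. Intervals cover the spread among these 8 tumours only. The least covered receptor values rested on 749 fragments for Fcgrt and 753 for Fcgr1.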
